A study of Mus musculus with 37 samples.

Results

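The genes described here are the replication-dependent histone genes of the mouse, taken from a table of RNA levels as every symbol that starts with Hist1h, Hist2h, Hist3h or Hist4h. The rule found 68 of the 23235 genes of the table. By the class in the symbol, 6 are H1 linker histones, 18 are H2A, 19 are H2B, 12 are H3 and 13 are H4. The symbols place 54 in histone cluster 1 on chromosome 13, 10 in cluster 2 on chromosome 3, 3 in cluster 3 on chromosome 11 and 1, Hist4h4, on chromosome 6. The H2B member Hist3h2bb-ps is named as a pseudogene.

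The study mapped open chromatin in mouse preimplantation embryos and asked what the transcription factor subunit Nfya does at the 2-cell stage. RNA was sequenced from 5 pools of embryos. The Nfya-KD group had 2 pools, of 10 and 13 2-cell embryos, given siRNA against Nfya, and the siControl group had 2 pools, of 10 and 16 2-cell embryos, given control siRNA. All 4 were collected 30 h after fertilization. The third group was a single pool of 20 1-cell embryos collected at 12 h, labelled only as embryos from in vitro fertilization. The labels give BDF1 for both parents, although the general protocol names JF1 sperm for stages other than the 1-cell stage, so the sires of the 1-cell and 2-cell pools may differ. The oocyte donors were superovulated females 8 weeks old, and fertilization was in vitro. The design text names siNfya#1 and siNfya#2, and the source labels number the siRNA as the library, so each knockdown library appears to carry an siRNA of its own. The protocol given for the series is that of the DNase-seq libraries, and the sources used here do not say how RNA was captured. Pools are separate samples by their labels, but no label says that they came from separate females or days, so p-values measure the spread between these pools.

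Replication-dependent histone genes supply the bulk of new histones when DNA is copied. H2A, H2B, H3 and H4 form the core of the nucleosome, and H1 binds the linker DNA between nucleosomes. Most of their mRNAs have no introns and end in a conserved stem-loop in place of a poly(A) tail. The stem-loop is bound by Slbp, and the mRNAs are made in S phase and degraded when it ends. Priming on poly(A) therefore captures few of them, and oocytes are known to store histone mRNA for the first divisions. NF-Y, the heterotrimer of Nfya, Nfyb and Nfyc, binds the letters CCAAT, which are a known feature of histone promoters, and Nfya makes the sequence-specific contact.

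The promoters of 7 members on which the results below turn are shown first, because the knockdown targets the factor that binds CCAAT. They are H1, H2A and H4 genes with and without those letters. Each line gives the 150 bases before the annotated start, 5′ to 3′ on the strand of the gene, from RefSeq on GRCm38.p6. Capitals mark the NF-Y letters CCAAT, the TATA box as TATAAA, the core of the octamer that Pou2f1 binds as ATGCAAA, and letters within the H4 element bound by Hinfp as GGTCCG, each on either strand. The Hinfp letters were added after the sequences had been seen.
Hist1h1b (chr13:21780626-21780775, minus strand): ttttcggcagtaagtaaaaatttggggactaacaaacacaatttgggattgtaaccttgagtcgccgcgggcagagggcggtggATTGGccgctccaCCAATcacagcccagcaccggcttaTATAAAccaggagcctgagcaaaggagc
Hist2h2ac (chr3:96220881-96221030, minus strand): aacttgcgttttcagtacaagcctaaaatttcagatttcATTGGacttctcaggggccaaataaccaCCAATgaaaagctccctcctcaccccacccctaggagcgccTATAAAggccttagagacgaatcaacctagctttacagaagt
Hist1h2ao (chr13:21810217-21810366, plus strand): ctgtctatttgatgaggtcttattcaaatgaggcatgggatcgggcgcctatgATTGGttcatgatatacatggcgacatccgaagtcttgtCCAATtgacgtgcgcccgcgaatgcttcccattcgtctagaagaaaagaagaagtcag
Hist1h2aa (chr13:23934287-23934436, plus strand): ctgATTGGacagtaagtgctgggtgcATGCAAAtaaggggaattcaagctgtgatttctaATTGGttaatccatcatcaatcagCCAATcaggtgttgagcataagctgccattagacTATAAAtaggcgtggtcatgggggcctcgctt
Hist1h1a (chr13:23763518-23763667, plus strand): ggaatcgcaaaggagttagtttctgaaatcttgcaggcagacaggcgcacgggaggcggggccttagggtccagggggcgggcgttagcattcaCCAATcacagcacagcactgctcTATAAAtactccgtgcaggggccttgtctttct
Hist1h4d (chr13:23581418-23581567, plus strand): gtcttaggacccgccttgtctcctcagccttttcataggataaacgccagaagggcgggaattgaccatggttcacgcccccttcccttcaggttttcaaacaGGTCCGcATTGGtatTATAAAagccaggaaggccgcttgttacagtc
Hist4h4 (chr6:136804432-136804581, minus strand): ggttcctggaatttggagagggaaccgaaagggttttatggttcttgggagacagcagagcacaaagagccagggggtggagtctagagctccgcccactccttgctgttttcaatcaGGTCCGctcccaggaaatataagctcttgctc
The first base of the nearest CCAAT lay 53 bases before the start in Hist1h1b, 83 in Hist2h2ac, 58 in Hist1h2ao, 66 in Hist1h2aa, 56 in Hist1h1a and 40 in Hist1h4d. Hist4h4 held none in the printed stretch.

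CCAAT was a feature of every histone class but H4. A promoter of 250 bases before to 50 after the start was matched for 62 of the 68 members, and CCAAT stood on either strand in 53 of them, 85.5%, against 37.4% of 32851 promoters of the same length. All 6 H1, 18 H2A, 16 H2B and 10 H3 promoters held it, but 3 of 12 H4 promoters did. At least 2 copies stood in 44 member promoters, 71.0%, against 11.7% of all promoters. GGTCCG showed the opposite split, with 11 of 12 H4 promoters, 1 H2B and 1 H3, against 8.25% of all promoters. TATAAA stood in 35 member promoters, 56.5%, against 13.6%. ATGCAAA stood in 15, 24.2%, against 4.63%, and 7 of these were H2A, 7 H2B and 1 H4. In 10 pairs an H2A and an H2B gene started back to back within 500 bases of each other, and the starts of Hist1h2ba and Hist1h2aa were 281 bases apart. Such pairs share promoter sequence and are not independent of each other. A match is a run of letters and not a measured site.

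Library totals and cell markers were examined before the members. Summed FPKM (fragments per kilobase of transcript, scaled to the mapped fragments of the library) was 260569 and 449820 in the Nfya-KD libraries numbered 1 and 2, 243441 and 457684 in siControl 1 and 2, and 417931 in the 1-cell library. The libraries thus stood apart by number more than by siRNA, and values within each number are given beside the pooled ones. Nfya was at 3.28 and 4.48 FPKM in Nfya-KD 1 and 2, against 10.3 and 15.5 FPKM in siControl 1 and 2, and at 36.8 FPKM in the 1-cell library. Both knockdown libraries lay below both controls. The 10 oocyte markers of the list used were all above the filter, and 10 of 12 2-cell markers were, while Tcstv1 and Tcstv3 were listed at 0 in all 5 libraries. Of 12 cumulus and granulosa markers, summed at 10.3 and 11.7 FPKM in Nfya-KD, 13.7 and 13.1 in siControl and 6.70 in 1-cell embryos, 2 passed the filter, Amhr2 and Tnfaip6. Of 7 sperm markers, summed at between 3.53 and 12.9 FPKM, Prm2 and Tnp1 passed it. The median of Nfya-KD minus siControl was -0.23 on the log2 scale for each of these pairs and 0.14 for the oocyte markers. The part of other cells in the histone levels was not tested.

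Histone cluster mRNA was a small share of the RNA in every library, and a few members carried most of it. The 68 members summed to 108.5 and 290.6 FPKM in Nfya-KD 1 and 2, to 124.8 and 385.4 FPKM in siControl 1 and 2, and to 344.9 FPKM in 1-cell embryos. These are between 0.0416% and 0.0842% of the summed FPKM of a library. The 2 libraries numbered 2 lay far above the 2 numbered 1, and the siRNA groups overlapped. Hist1h1a, the gene of the linker histone H1.1, had the highest level of all members in each of the 5 libraries and made up between 20.0% and 41.6% of the sum. H3 was the lowest class in all 5, with between 3.84 and 12.0 FPKM.

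**Figure D1:**
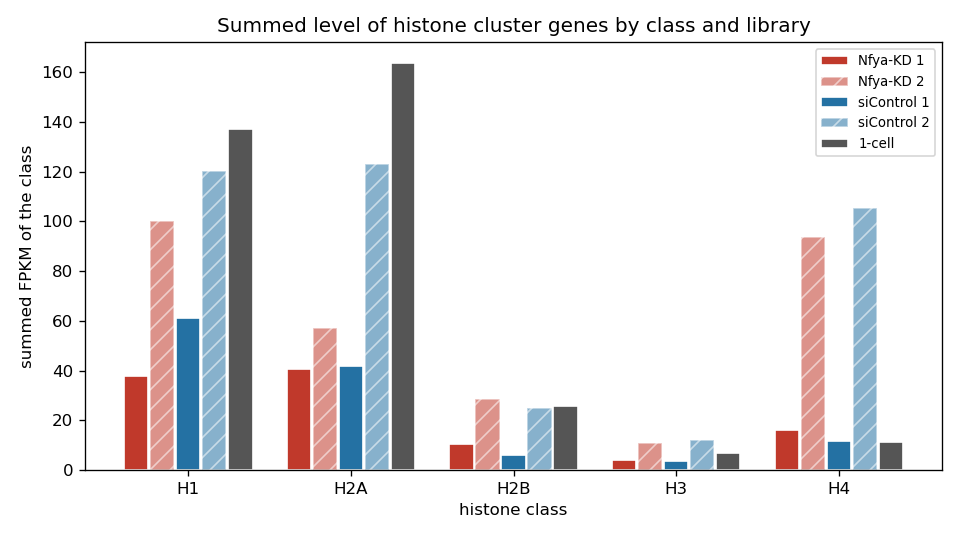
Summed FPKM (vertical axis) of the members of each histone class (horizontal axis), 1 bar per library, with Nfya-KD 1 and 2 left of siControl 1 and 2 and the 1-cell library. The H4 sums of the libraries numbered 2, at 93.8 FPKM in Nfya-KD and 105.3 FPKM in siControl, stand above the other 3 libraries, which lie between 11.3 and 16.0 FPKM.

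Most members were near or below detection. Of the 68 members, 8 were listed at 0 in all 5 libraries, among them Hist1h1t, the testis-specific linker histone, and 32 were above 0 in all 5. A level of 1 FPKM was never reached by 32 members, and 11 more reached it in too few libraries to pass the filter of 1 FPKM in at least 2 of the 4 2-cell libraries. That left 25 members for the knockdown comparison: 2 of 6 H1, 7 of 18 H2A, 5 of 19 H2B, 4 of 12 H3 and 7 of 13 H4. A member high in 1 group alone could pass that filter, so these 25 do not stand for all 68. Hist1h1e, which encodes H1.4, was one that did not pass, with 0.401 and 0.338 FPKM in Nfya-KD 1 and 2, 0.383 and 1.20 FPKM in siControl 1 and 2, beside 0.682 FPKM in 1-cell embryos. FPKM values were whole multiples of a common step for 36 of the 44 members above 0 in at least 3 libraries, within 0.05 of a step, and these multiples are given below as the fewest reads that the values allow. Many members of a class encode the same protein from nearly identical sequence. Hist1h2ad and Hist1h2ak carried identical values in all 5 libraries, but were above 0 in 2 of them. Hist1h2af and Hist1h2ai did likewise, above 0 in 1 library. The split of reads between such copies is uncertain.

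No histone cluster gene passed the test between Nfya-KD and siControl embryos, and the members lay on both sides of 0. Of the 25 tested, 13 had a log2 difference below 0 and 12 above, against 47.6% of all 10533 genes below and 52.4% above. Their median was -0.15 and that of all genes 0.01 on the log2(FPKM + 1) scale, with members between -1.97 and 0.77. The 2 H1 members tested had a median of -0.83, the 7 H2A -0.52, the 5 H2B 0.05, the 4 H3 0.00 and the 7 H4 0.54. With limma and Benjamini-Hochberg adjustment over all genes, 0 members were called in either direction, beside 0.0% of all genes in each direction, and the adjusted p was 1.00 for each of the 25. Before adjustment, limma gave 1 member lower at p under 0.05, Hist2h2ac, and 0 higher, beside 0.873% of all genes lower and 0.446% higher. Both Nfya-KD libraries lay below both siControl libraries for 1 member, Hist2h2ac, and above them for 2, Hist1h2bj and Hist2h4, beside 8.61% and 8.27% of all genes. Together these 3 are 12.0% of the members tested, below the 16.9% of all genes. Hist1h2bj passed the filter through the Nfya-KD libraries alone, so its place in this count is set in part by the filter. Within the libraries numbered 1 the member median was 0.13, and within those numbered 2 it was -0.12. In both numbers 8 members were below 0 and 9 above, and 8 had opposite signs in the 2 numbers. The direction of the median changed with the library left out, where the filter was applied anew and the members tested changed too. It was 0.43 over 24 members with Nfya-KD 1 left out and -0.33 over 17 with Nfya-KD 2 left out. With siControl 1 left out it was -0.51 over 25 members, and with siControl 2 left out 0.49 over 18. Without siControl 1, limma called 4 members lower, Hist1h1b, Hist1h2ag, Hist1h2ao and Hist2h2ac, and 0 higher, beside 25 of all 10062 genes lower, 0.248%, and 6 higher, 0.0596%. Without siControl 2 it called 1 member higher, Hist1h2ba, and 0 lower, beside 5 of all 10168 genes higher, 0.0492%, and 8 lower, 0.0787%. With Nfya-KD 1 left out it called 0 members, beside 0.0893% of all genes lower and 0.0198% higher, and with Nfya-KD 2 left out 0, beside 0.0491% and 0.00982%. In these fits the lone library is taken to vary like the other group. These fits also set libraries of both numbers against a lone library of 1 number, so siRNA and library number are mixed. The control kept without siControl 1 was siControl 2. It exceeded siControl 1 by 2.19 on the log2 scale for Hist1h1b, 2.22 for Hist1h2ag, 4.64 for Hist1h2ao and 2.06 for Hist2h2ac. For Hist1h2ba, called higher without siControl 2, siControl 2 was above siControl 1 by 3.12. The part of the number in these calls was not tested. Of the 10 2-cell embryo markers tested, 8 were below 0 between Nfya-KD and siControl and 2 above, with a median of -0.30, or 0.01 within number 1 and -0.51 within number 2, and their part in the histone differences was not tested.

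**Figure D2:**
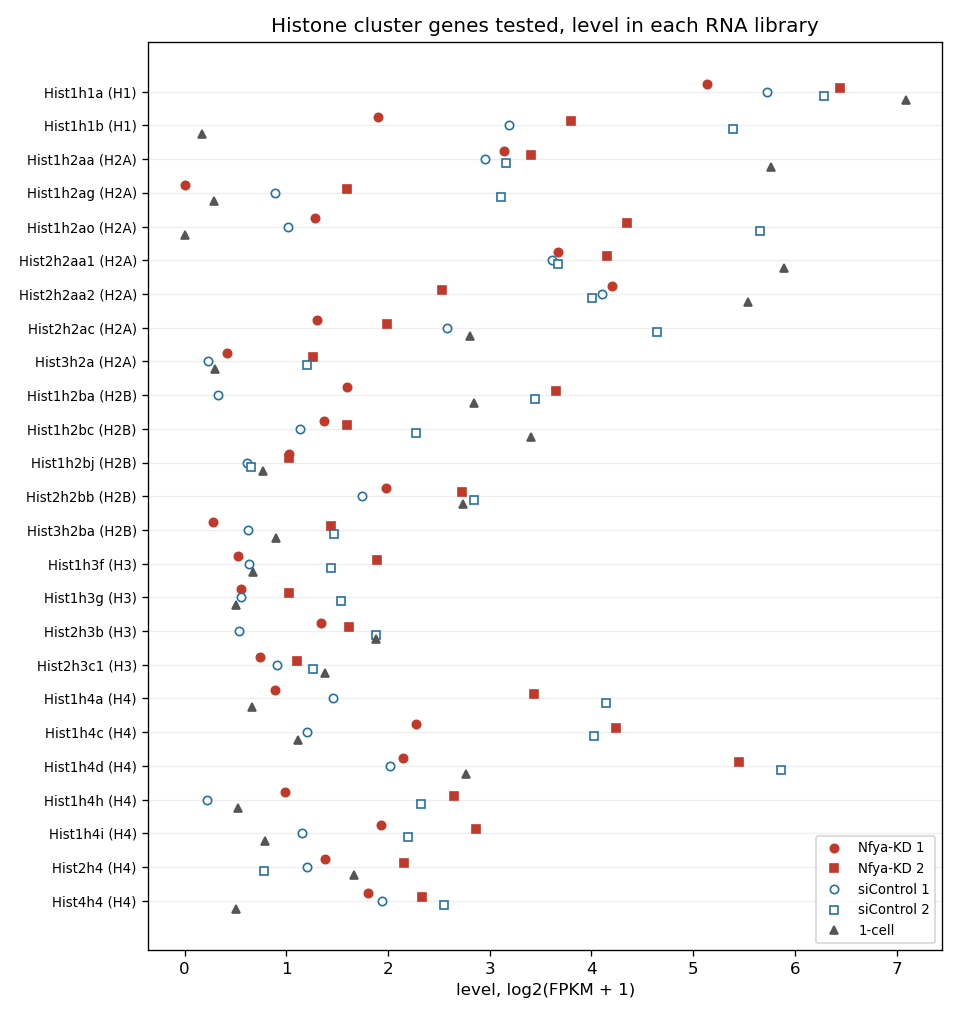
Level of each of the 25 members tested on the log2(FPKM + 1) scale (horizontal axis), 1 row per gene by class, with 1 symbol per library in the order Nfya-KD 1, Nfya-KD 2, siControl 1, siControl 2 and 1-cell. For most members the squares (libraries numbered 2) lie right of the circles (numbered 1) in both siRNA groups, and in 3 rows both Nfya-KD symbols stand clear of both siControl symbols.

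The linker histone genes tested were Hist1h1a and Hist1h1b. Hist1h1b, which encodes H1.5, had 2.73 and 12.9 FPKM in Nfya-KD 1 and 2, against 8.15 and 40.9 FPKM in siControl 1 and 2. The multiples behind these values were 29 and 102 reads in Nfya-KD and 85 and 389 reads in siControl. Within each number the knockdown library was about as far below its control, at 0.335 and 0.316 of it, but Nfya-KD 2 lay above siControl 1, so the groups overlapped. The log2 difference was -1.44 ± 0.96 (SE, n = 2 libraries a group, adjusted p = 1.00 with limma), and -1.30 and -1.59 within numbers 1 and 2. Hist1h1a was at 34.3 and 86.2 FPKM in Nfya-KD 1 and 2, against 52.0 and 77.3 FPKM in siControl 1 and 2. Its lowest and its highest library were both knockdowns, and the log2 difference was -0.22 ± 0.59 (SE). It carried 1 CCAAT in the printed promoter and Hist1h1b 2.

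Among H2A genes the widest gap between the groups was at Hist2h2ac, a cluster 2 gene. It had 1.47 and 2.97 FPKM in Nfya-KD 1 and 2, against 4.99 and 24.1 FPKM in siControl 1 and 2. That is 6 and 9 reads in Nfya-KD, and 20 and 88 reads in siControl, so both knockdown libraries were the low ones. The log2 difference was -1.97 ± 0.73 (SE), with an unadjusted p of 0.043 and an adjusted p of 1.00 from limma, and it was -1.28 within number 1 and -2.66 within number 2. Hist1h2ao, a cluster 1 gene, had 1.44 and 19.4 FPKM in Nfya-KD 1 and 2, against 1.02 and 49.6 FPKM in siControl 1 and 2. Its level followed the library number, and the log2 difference of -0.52 ± 1.77 (SE) was 0.27 within number 1 and -1.31 within number 2. Hist2h2aa2, which encodes the same protein as Hist2h2aa1, had 17.4 and 4.77 FPKM in Nfya-KD 1 and 2, against 16.1 and 15.05 FPKM in siControl 1 and 2. One knockdown library was low and the other was the highest of the 4, with a log2 difference of -0.69 ± 0.60 (SE). Hist2h2aa1 showed no such gap, with 11.7 and 16.8 FPKM in Nfya-KD and 11.2 and 11.8 FPKM in siControl. Reads shared by this pair could be placed in either gene. Hist1h2aa, the gene of the testis and oocyte variant TH2A, was the steadiest of the abundant H2A members, with 7.83 and 9.56 FPKM in Nfya-KD and 6.74 and 7.93 FPKM in siControl. Its groups overlapped, and the log2 difference was 0.22 ± 0.28 (SE).

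H2B genes were low throughout. Hist1h2bj had 1.03 and 1.04 FPKM in Nfya-KD 1 and 2, against 0.526 and 0.576 FPKM in siControl 1 and 2. The groups did not overlap, but the values stand for 4 and 3 reads in Nfya-KD and 2 and 2 reads in siControl, and the log2 difference was 0.39 ± 0.25 (SE). Hist1h2ba, the gene of TH2B and the partner of Hist1h2aa at a shared promoter, had 2.03 and 11.6 FPKM in Nfya-KD 1 and 2, against 0.258 and 9.90 FPKM in siControl 1 and 2. It followed the library number, with 8 and 34 reads in Nfya-KD and 1 and 35 reads in siControl. The log2 difference was 0.74 ± 1.20 (SE), and 1.27 and 0.21 within numbers 1 and 2. Hist2h2bb, another core H2B gene, had 2.93 and 5.62 FPKM in Nfya-KD and 2.36 and 6.21 FPKM in siControl. Hist1h2bc had 1.59 and 2.03 FPKM in Nfya-KD and 1.20 and 3.84 FPKM in siControl. The controls enclosed the knockdown libraries in both genes.

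The 4 H3 genes tested had differences between -0.26 and 0.27 and were all at or below 2.72 FPKM in the 2-cell libraries. Hist2h3b had 1.53 and 2.06 FPKM in Nfya-KD and 0.446 and 2.69 FPKM in siControl, or 7 and 7 reads against 2 and 11. Hist2h3c1 had 0.668 and 1.15 FPKM in Nfya-KD and 0.872 and 1.40 FPKM in siControl. Hist1h3g had 0.465 and 1.04 FPKM in Nfya-KD and 0.474 and 1.90 FPKM in siControl. In each of these 3 the groups overlapped.

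H4 genes had the highest class median, and of the 6 tested ones with a promoter, 3 held CCAAT and 3 did not. Hist1h4d, the H4 gene of highest siControl mean, had 3.42 and 42.6 FPKM in Nfya-KD 1 and 2, against 3.05 and 57.3 FPKM in siControl 1 and 2. Both libraries numbered 1 were low and both numbered 2 were high, and the log2 difference was -0.15 ± 1.63 (SE). Hist1h4a had 0.855 and 9.79 FPKM in Nfya-KD and 1.74 and 16.7 FPKM in siControl, with a log2 difference of -0.64 ± 1.19 (SE). Hist1h4c had 3.85 and 17.9 FPKM in Nfya-KD and 1.31 and 15.3 FPKM in siControl, with a log2 difference of 0.64 ± 1.11 (SE). These 2 genes had the same split by number and differed in the sign of the knockdown difference. Hist2h4, in cluster 2, had 1.60 and 3.45 FPKM in Nfya-KD and 1.30 and 0.714 FPKM in siControl. Both knockdown libraries were above both controls, with 5 and 8 reads against 4 and 2, and the log2 difference was 0.77 ± 0.37 (SE), or 0.17 within number 1 and 1.37 within number 2.

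**Figure D3:**
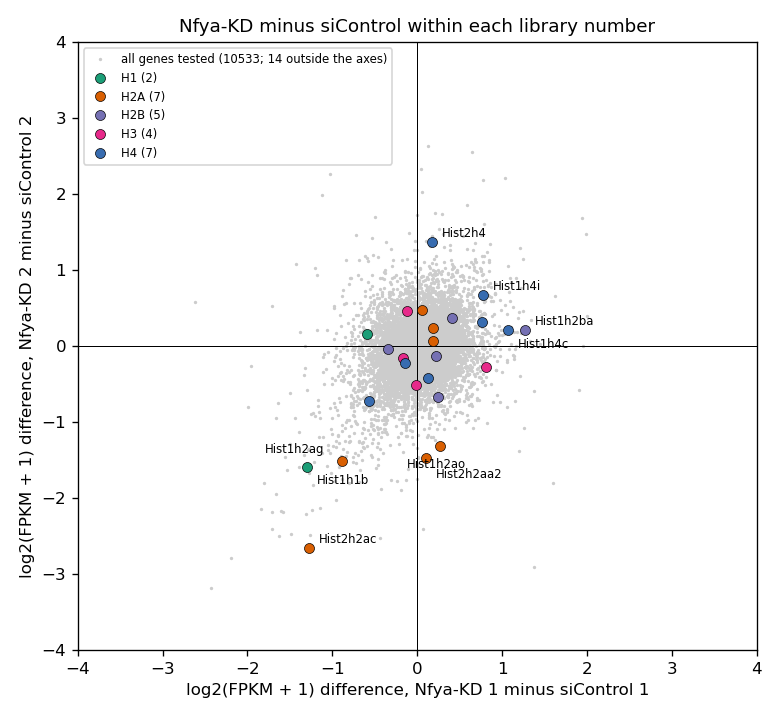
Difference of Nfya-KD minus siControl on the log2(FPKM + 1) scale, within the libraries numbered 1 (horizontal axis) and numbered 2 (vertical axis), for the 25 members coloured by class and all 10533 genes tested in grey, of which 14 lie outside the axes. Hist2h2ac, at -1.28 and -2.66, is the member farthest to the lower left, and Hist1h1b and Hist1h2ag lie near it, while the other members spread to both sides of 0.

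The members were also split by promoter. The 19 tested members with CCAAT had a median log2 difference of -0.16, with 11 below 0 and 8 above. The 3 tested members without it, all H4, had a median of 0.54, with 1 below 0 and 2 above. The 15 members with at least 2 copies, which are part of the 19, had a median of 0.05, with 7 below 0 and 8 above. Those with 1 copy were Hist1h1a, Hist1h4a, Hist1h4d and Hist2h3c1, at -0.22, -0.64, -0.15 and -0.16. The part of the number of copies was not tested. The members with CCAAT ranged from -1.97 to 0.74 and those without from -0.18 to 0.72, and no test was made between groups of genes that share promoters. Hist1h1b and Hist2h2ac, the most negative pair, each held 2 copies in the printed 150 bases, and so did Hist1h2ao, while Hist1h2aa held 3 and had a difference of 0.22.

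The number of the library divided these genes, and some related lists, in both siRNA groups. Among the 25 members, 8 were at least 1 higher on the log2 scale at number 2 than at number 1 in both siRNA groups, which is 32.0%, against 10.3% of all genes tested. No member was lower by that much in both groups (0 of 25), against 1.11% of all genes. The 8 were Hist1h1b, Hist1h2ag, Hist1h2ao, Hist1h2ba, Hist1h4a, Hist1h4c, Hist1h4d and Hist1h4h, all in cluster 1. Of the 25, 7 passed the filter through the libraries numbered 2 alone, and Hist1h2ag and Hist1h4h of the 8 were among these, so their place in the count is set in part by the filter. With at least 1 FPKM asked of a library numbered 1 as well, 6 of 18 members were higher in both groups, against 9.99% of all genes, and 0 lower, against 1.14%. Over the 25, the median of number 2 minus number 1 was 0.84 in Nfya-KD and 1.04 in siControl, against 0.14 and 0.20 for all genes. Hist1h2ao had 3.06 in Nfya-KD and 4.64 in siControl, and Hist1h4d 3.30 and 3.85. The summed H4 level was 5.86-fold in Nfya-KD and 9.05-fold in siControl, and as a share of the summed FPKM of the library it was 0.0208% in Nfya-KD 2 and 0.00614% in Nfya-KD 1, and 0.0230% in siControl 2 and 0.00478% in siControl 1. With each library scaled to the same sum, where all genes had a median of -0.59 in Nfya-KD and -0.66 in siControl, 9 of 35 members were at least 1 higher in both groups, against 1.69% of all genes, and 1, Hist1h2bb, at least 1 lower, against 18.7%. Hist1h4k, of the 9, was at 0 in both libraries numbered 1, and Hist1h2bb was at 0 in both numbered 2. Their places in these counts are set in part by the filter. Hist1h2aa and Hist2h2aa1 did not follow the number, with 0.26 and 0.49 in Nfya-KD and 0.21 and 0.06 in siControl, and Hist2h2aa2 was lower at number 2 in Nfya-KD by 1.67 on the log2 scale. Some of the lists described below were divided as well. Without scaling, 6 of 10 replication-independent histone genes were at least 1 higher at number 2 in both groups. So were 8 of 18 genes for 3′ processing and decay of histone mRNA. The counts were 4 of 20 S-phase genes, 2 of 14 factors that act on histone genes and 1 of 24 chaperone genes. The pools numbered 1 had 10 embryos each, and those numbered 2 had 13 in Nfya-KD and 16 in siControl. In Nfya-KD the siRNA appears to differ by number as well. What sets the numbers apart (pool, number of embryos, day or library preparation) cannot be told apart from the labels.

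**Figure D4:**
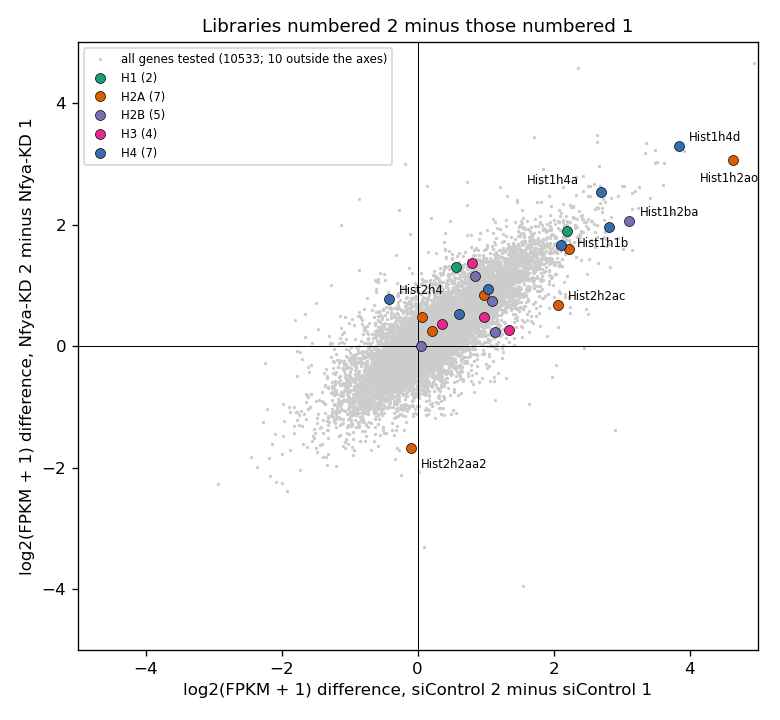
Difference of the library numbered 2 minus that numbered 1 on the log2(FPKM + 1) scale in siControl (horizontal axis) and Nfya-KD (vertical axis) embryos, for the 25 members coloured by class and all 10533 genes tested in grey, of which 10 lie outside the axes. Hist1h4d and Hist1h2ao, at 3 or more in both groups, lie farthest to the upper right of the members, and Hist2h2aa2 stands below them at -1.67 in Nfya-KD.

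Between the 1-cell and 2-cell stages members differed in both directions, at shares slightly below those of all genes. H2A held genes called higher and genes called lower. The 1-cell stage had 1 library, so this comparison has no test, and a member is called higher or lower where both siControl libraries differ from it by at least 1 on the log2(FPKM + 1) scale. Of 18 members that passed the filter, 3 were called higher in 2-cell siControl embryos, 16.7%, against 19.1% of 10058 genes. Another 4 were called lower, 22.2%, against 27.6%. The 3 called higher were below 1 FPKM in the 1-cell library and passed the filter through the siControl libraries alone. Their place in this count is set in part by the filter. A gene that reached 1 FPKM in the 1-cell library alone could not pass the filter and be called lower. The median difference of the 18 was -0.37, beside -0.43 for all genes, but it was -0.61 for siControl 1 and 0.35 for siControl 2. Scaling shifts this comparison as a whole, since the median of all genes was -0.18 with libraries scaled to the same sum and 0.14 with upper-quartile scaling. The 7 members called kept their sign under both scalings, but the members tested and the calls over all genes changed. Without scaling, 2779 of all genes were called lower and 1918 higher. With scaling to the same sum, 3 of 31 members were called lower and 7 higher, beside 2222 of all genes lower and 3065 higher. With upper-quartile scaling, 2 of 19 members were called lower and 4 higher, beside 1320 of all genes lower and 2716 higher.

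The genes called higher were Hist1h1b, Hist1h2ao and Hist4h4. Hist1h1b was at 0.128 FPKM in 1-cell embryos, or 1 read, and its differences were 3.02 in siControl 1 and 5.21 in siControl 2. Hist1h2ao was listed at 0 in 1-cell embryos and had differences of 1.02 and 5.66. Hist4h4, whose printed promoter has GGTCCG and no CCAAT, was at 2.49 and 4.05 FPKM in Nfya-KD, 2.85 and 4.87 FPKM in siControl and 0.418 FPKM in 1-cell embryos, and its differences from the 1-cell library were 1.44 and 2.05. Of these 3 genes, Hist4h4 was the most even between the siControl libraries. Hist1h4d, at 5.82 FPKM in 1-cell embryos, was not called, since its differences were -0.75 in siControl 1 and 3.10 in siControl 2. Hist1h4a and Hist1h4c, at 0.582 and 1.16 FPKM in 1-cell embryos, likewise differed by 0.79 and 0.09 in siControl 1 and by 3.49 and 2.91 in siControl 2. With either siControl library left out, the filter asked for 1 FPKM in both remaining libraries, which the 3 genes called higher do not reach in the 1-cell library. Calls with 1 control left out therefore cover a different set of members and are not set against these 3.

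The genes called lower were 3 H2A genes and 1 H2B gene, all among the 5 members most abundant in the 1-cell library. Hist1h2aa, encoding TH2A, was at 53.3 FPKM in 1-cell embryos, and its differences were -2.81 and -2.60 in siControl 1 and 2. Hist2h2aa1 was at 58.3 FPKM in 1-cell embryos with differences of -2.28 and -2.22, and Hist2h2aa2 at 45.4 FPKM with -1.44 and -1.53. Both siControl libraries lay close together for these 3 and far below the 1-cell library. Hist1h2bc was at 9.58 FPKM in 1-cell embryos, and its differences were -2.27 and -1.13. Hist1h1a, the most abundant member, was at 135.3 FPKM in 1-cell embryos, and its differences of -1.36 and -0.80 left it just short of the call. Hist1h2ba was at 6.20 FPKM in 1-cell embryos and differed by -2.52 in siControl 1 and 0.60 in siControl 2, so the partners of the TH2A and TH2B promoter had opposite signs in siControl 2. The summed H2A level was 41.8 and 122.9 FPKM in siControl 1 and 2, against 163.8 FPKM in 1-cell embryos, and the summed H4 level 11.6 and 105.3 FPKM, against 11.3 FPKM. Hist2h2bb, Hist2h3b, Hist2h3c1 and Hist2h4 were at 5.67, 2.68, 1.60 and 2.17 FPKM in 1-cell embryos, and none of these 4 was called.

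**Figure D5:**
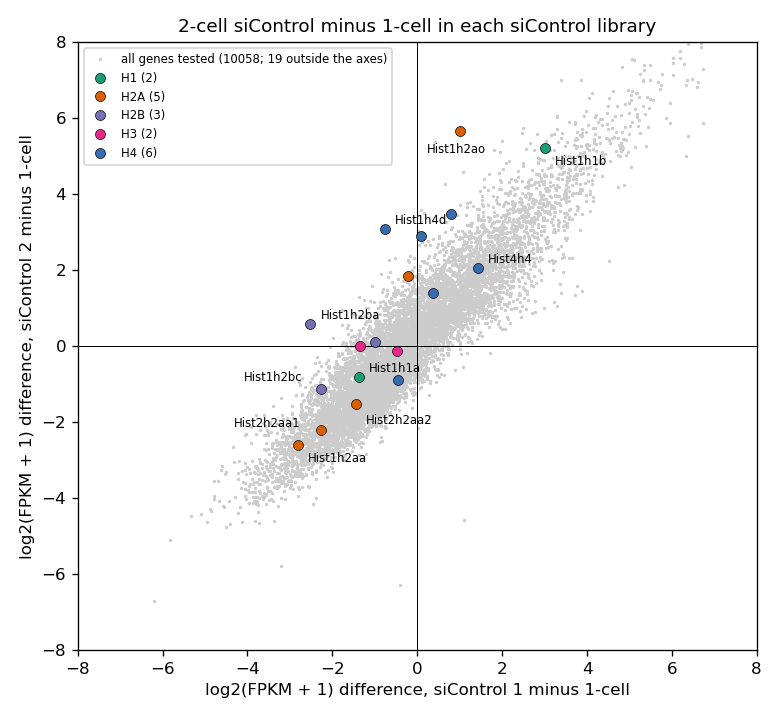
Difference of 2-cell siControl minus 1-cell on the log2(FPKM + 1) scale for siControl 1 (horizontal axis) and siControl 2 (vertical axis), for the 18 members tested coloured by class and all 10058 genes in grey, of which 19 lie outside the axes. Hist1h1b, Hist1h2ao and Hist4h4 are the members at 1 or more on both axes, Hist1h2aa, Hist2h2aa1, Hist2h2aa2 and Hist1h2bc those at -1 or less on both, and Hist1h4d and Hist1h2ba have opposite signs on the 2 axes.

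Genes that serve the histone genes were examined as lists. None of the lists had a gene called between Nfya-KD and siControl (0 in each, limma). The 12 replication-independent histone genes, most of which are also made outside S phase and carry poly(A) tails, far exceeded the cluster genes. They summed to 1480 and 4066 FPKM in Nfya-KD, 1503 and 4279 FPKM in siControl and 2358 FPKM in 1-cell embryos. Among 10 tested, 6 were at least 1 higher on log2 at number 2 in both groups, beside 10.3% of all genes. The median of number 2 minus number 1 was 1.38 in Nfya-KD and 1.52 in siControl. H3f3b, which encodes H3.3, had 741 and 1348 FPKM in Nfya-KD, 785 and 1638 FPKM in siControl and 1162 FPKM in 1-cell embryos. H2afz, which encodes H2A.Z, had 362 and 1311 FPKM in Nfya-KD, 377 and 1215 FPKM in siControl and 48.2 FPKM in 1-cell embryos. Both were higher in each library numbered 2 than in its partner numbered 1, by 0.86 in Nfya-KD and 1.06 in siControl on the log2 scale for H3f3b, and by 1.85 and 1.69 for H2afz.

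Of 14 factors that act on histone genes, 8 had a difference below 0 and 6 above, with a median of -0.06. Nfyb was at 52.9 and 127 FPKM in Nfya-KD, 13.0 and 38.8 FPKM in siControl and 9.77 FPKM in 1-cell embryos, and the log2 difference between the siRNA groups was 1.81 ± 0.71 (SE, adjusted p = 1.00 with limma). Nfyc was at 34.5 and 49.5 FPKM in Nfya-KD, 26.6 and 42.5 FPKM in siControl and 62.9 FPKM in 1-cell embryos. Ccne1, the cyclin that drives histone transcription through Npat, was at 57.2 and 129 FPKM in Nfya-KD, 67.7 and 139 FPKM in siControl and 2.12 FPKM in 1-cell embryos. Casp8ap2, a component of histone locus bodies, was at 113 and 87.2 FPKM in Nfya-KD, 83.5 and 67.5 FPKM in siControl and 149 FPKM in 1-cell embryos. Slbp, named after its values were seen because it binds the stem-loop, was at 97.3 and 235 FPKM in Nfya-KD, 83.6 and 204 FPKM in siControl and 1679 FPKM in 1-cell embryos. Its differences from the 1-cell library were -4.31 in siControl 1 and -3.04 in siControl 2.

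Of 18 genes tested for 3′ processing and decay of histone mRNA, 5 had a difference below 0 and 13 above, with a median of 0.12, and Snrpg, of the ring shared by spliceosomal and U7 particles, was its most abundant member, followed by Snrpe. The 24 chaperone and deposition genes, led by Npm1 and Rbbp7, had 10 below and 14 above with a median of 0.01, and the 20 S-phase genes, led by Ccna2 and Rrm2, had 13 below and 7 above with a median of -0.05. From 1-cell to 2-cell siControl embryos, 11 of the 24 chaperone genes were called lower and 1 higher, and 2 of the 20 S-phase genes lower and 0 higher, beside the 27.6% of all genes lower and 19.1% higher.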

How the data were processed

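RNA-seq of 5 embryo pools was used. Build mm9, TopHat2 2.0.6, Cufflinks 2.2.1 and Bowtie 0.12.9 are named in the submitters' processing notes, and the authors deposited 1 table of FPKM per gene, with no counts. No column of values went unused (0). Groups and numbers were taken from the labels, with the columns headed as controls read as siControl. The DNase-seq files were not analysed here, since tying sites to genes needs gene coordinates on mm9.

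Members and gene lists were chosen with earlier results of these data known. Genes reaching 1 FPKM in 2 or more of the 4 2-cell libraries were kept, and log2(FPKM + 1) was tested two-sided with limma 3.58.1 in R 4.3.3 (eBayes with trend, group as the only term, Benjamini-Hochberg over all genes tested, threshold 0.05). This scale understates changes of low genes. The 1-cell library stayed out of the fit. Stage differences used the same filter over the siControl and 1-cell libraries. The modal ratio between libraries, over values below 0.3 FPKM, gave the relative depth, which was 1.02 in Nfya-KD 1, 0.756 in Nfya-KD 2, 0.912 in siControl 2 and 0.749 in the 1-cell library, relative to siControl 1. Multiples of a common step in FPKM times that depth gave the fewest reads, with a tolerance of 0.05, in members above 0 in at least 3 libraries and with a smallest value of at most 10 steps. True depth is unknown, so no counting interval is given.

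All 68 symbols matched RefSeq by symbol or synonym. Promoters were searched for each motif on both strands, and 1 pair of motifs overlapped. Hist1h2be matched more than 1 promoter and was counted once.

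Named genes were, in each class, the 3 members of highest siControl mean and up to 2 with separate groups and the largest knockdown difference, the members called between stages, Nfya, Nfyb and Nfyc, and the 2 of highest siControl mean in each list. Python 3.11.15 with pandas 2.3.3 and numpy 2.4.6 was used, and matplotlib 3.10.9 for the plots.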

Additional observations from a re-analysis of the deposited data

How the results depend on the processing

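Across all genes, limma called 0 lower and 0 higher between Nfya-KD and siControl, 1 lower with a pseudocount of 0.1, 3 lower and 1 higher with libraries scaled to the same sum or by the upper quartile, and between 5 and 25 lower and between 1 and 6 higher with 1 library left out. A replicate block for the library number gave 9 lower and 2 higher and called 0 members, with an adjusted p of 0.057 for Hist1h1b. The numbers are shared by label only, and deviations from the group means correlated at 0.744 within a number. With 1 library left out, between 0 and 4 members were called, and 12 of the 19 named members changed sign, where they ran from -0.87 to 0.44 for Hist1h1a, -2.84 to 1.80 for Hist1h2ao, -0.82 to 2.30 for Hist1h2ba, -0.79 to 0.35 for Hist1h2bc, -1.99 to 0.71 for Hist1h4a, -0.77 to 2.05 for Hist1h4c, -2.07 to 1.78 for Hist1h4d, -1.52 to 0.15 for Hist2h2aa2, -0.50 to 0.60 for Hist2h2bb, -0.41 to 0.95 for Hist2h3b, -0.34 to 0.021 for Hist2h3c1 and -0.48 to 0.12 for Hist4h4. Between stages, 1918 genes were called higher and 2779 lower. With at least 5 FPKM these were 1155 and 1586, with 1 member higher. A difference of at least 2 gave 860 and 893, with 1 member higher and 2 lower. Scaling to the same sum gave 3065 higher, with 7 of 31 members tested higher and a member median of 0.37. Upper-quartile scaling gave 1320 lower, with 2 of 19 members tested lower. With 1 control left out, 780 to 1429 genes and 0 to 3 members were called higher, and the member median ran from -1.18 to -0.055. The number 2 over number 1 count of 8 members, beside 10.3% of all genes, was 13 with a pseudocount of 0.1, beside 13.0% of all genes. The causes of these shifts were not tested, beyond the smaller sets of genes tested and the larger step. With 1 2-cell library left out, the siRNA groups also differed in library number. Levels near 1 FPKM may rest on a few reads in some members, such as Hist1h2bj and Hist2h4. Others stood for more, as Hist3h2a at 1.30 FPKM in siControl 2 stood for at least 48 reads. Low levels limit what can be seen for most members.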
